A study of Homo sapiens with 16 samples.

Results

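The comparison described is that of HMC3 cells given estradiol (E2) together with ketamine and HMC3 cells given vehicle. Its members are the columns of the deposited count table that carry these names, 2 E2+ketamine and 2 vehicle libraries, or 4 of the 16 libraries of the series. HMC3 is an immortalised human microglial line. The series holds RNA sequencing of 8 treatment groups with 2 libraries each, namely vehicle, E2, ketamine, the ketamine metabolites 2R6R-HNK and 2S6S-HNK, and E2 with each of these drugs. Cells of the E2+ketamine group received 0.1 nM E2 and 400 nM ketamine for 24 h, and cells of the vehicle group received neither, in medium free of serum and phenol red. The E2 and ketamine groups, used below to set the combination beside its parts, received only the agent they are named for, at the same dose and for the same time. It is not stated whether the libraries of a group came from separate cultures, so each p-value measures the spread between libraries, which may be technical.

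E2 acts through the nuclear estrogen receptors ESR1 and ESR2 and the membrane receptor GPER1, and ketamine is known as a blocker of NMDA-type glutamate receptors. Type I interferon signals through JAK kinases and STAT factors to interferon-stimulated genes, many of which carry the interferon-stimulated response element in their promoters and serve antiviral defence and antigen presentation. Other programs that cells start under strain include the integrated stress response, in which the factor ATF4 raises genes of amino acid supply, the heat shock response, and the metallothionein response to zinc through the factor MTF1.

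With E2 and ketamine together, more genes rose than fell among interferon-stimulated genes, genes of antigen presentation by MHC class I and genes of the integrated stress response, and more fell than rose in the cytosolic heat shock response. Of 50 interferon-stimulated genes tested, 22 rose and 12 fell, where 34.3% of all genes tested rose and 37.4% fell, and each of the 14 that moved by at least 1 on the log2 scale rose. Of 19 genes of MHC class I presentation, 14 rose and 3 fell, of 39 genes of the integrated stress response, 30 rose and 8 fell, and of 24 heat shock genes, 15 fell and 6 rose. The metallothionein genes MT1E, MT1F, MT1X and MT2A lay higher with the combination than with vehicle or with either agent alone. Much of the wider change followed the GC content of the genes, and values corrected for it and for exon length are given beside most of the measured fold changes, though not beside CPM.

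Here "rose" and "fell" are used of genes with an adjusted p under 0.05 (from edgeR's quasi-likelihood test, adjusted by Benjamini-Hochberg across all 16004 genes tested), and "changed" of those whose log2 fold change was also at least 1 in either direction. By that definition 1765 genes were changed (11.0% of the genes tested; 1755 with the replicate number as a block), of which 715 rose (4.47%) and 1050 fell (6.56%). Under the adjusted p alone, 71.7% of the genes tested passed, 34.3% higher and 37.4% lower, so a rise or a fall by itself is common here. The median log2 fold change of all genes tested was -0.03, and that of the changed genes was 1.15 in absolute size. Both E2+ketamine libraries lay on the same side of both vehicle libraries for 1755 of the 1765 genes. These genes were chosen by their difference between the same libraries, so that count adds no support. The share over all genes tested is not given. Of the changed genes, 991 had a mean of at least 5 CPM (counts scaled to the TMM-adjusted library size) over the 4 libraries. Whether more genes rose or fell depended on the scaling: risen genes made up 40.5% of those changed as reported, 55.9% under upper-quartile scaling and 52.9% under the size factors of DESeq2. The genes that fell were the more abundant, with a median of 22.2 CPM against 1.56 CPM for the genes that rose. In RNA from whole cultures, fewer cells that express a gene and less RNA of it per cell cannot be told apart.

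**Figure D1:**
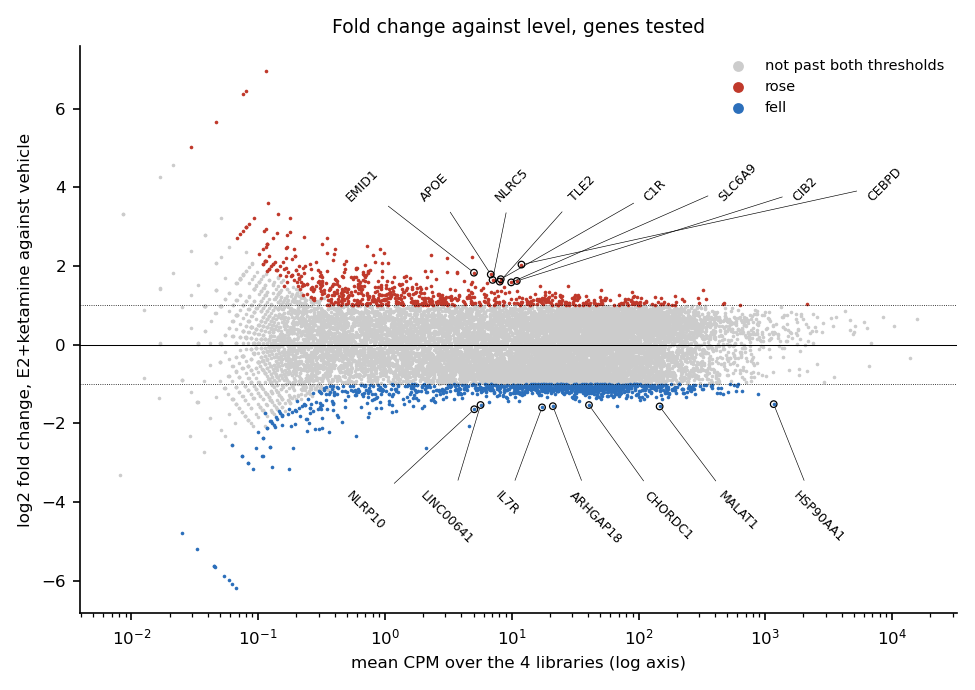
Log2 fold change of E2+ketamine against vehicle (vertical axis) against the mean CPM over the 4 libraries (horizontal log axis), a point for each gene tested; red points rose and blue points fell past both thresholds, and dotted lines mark a log2 fold change of 1 and -1. The circled genes come from the 8 largest rises, led by CEBPD at 2.04, and the 8 largest falls, led by NLRP10 at -1.64, among changed genes averaging 5 CPM or more and with libraries that do not overlap.

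The fold change followed base composition. Across 15351 genes with a known GC content, the log2 fold change had a Spearman correlation of 0.775 with exonic GC content and of -0.29 with exon length. No p is given here, because genes do not vary independently of each other. In the tenth of genes with the lowest GC content (24.2% to 39.0%), the median log2 fold change was -0.83, and 353 genes fell past both thresholds. In the tenth with the highest (62.3% to 87.9%), the median was 0.76, with 290 risen and 5 fallen. The changed genes that rose had a median GC content of 61.0% and those that fell 40.3%, against 49.3% for all genes. Their median exon lengths were 2596 and 5304 bases, against 3739. Between replicates of a group, the same correlation lay between -0.28 and 0.23 over the 8 groups, at 0.23 for E2+ketamine and -0.13 for vehicle, so the trend was larger than the spread between replicates. It was not particular to the combination: the correlation was 0.757 for E2 and 0.644 for ketamine against the same vehicle libraries. For the combination against E2 alone it was 0.538, and for the interaction of the agents -0.288.

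**Figure D2:**
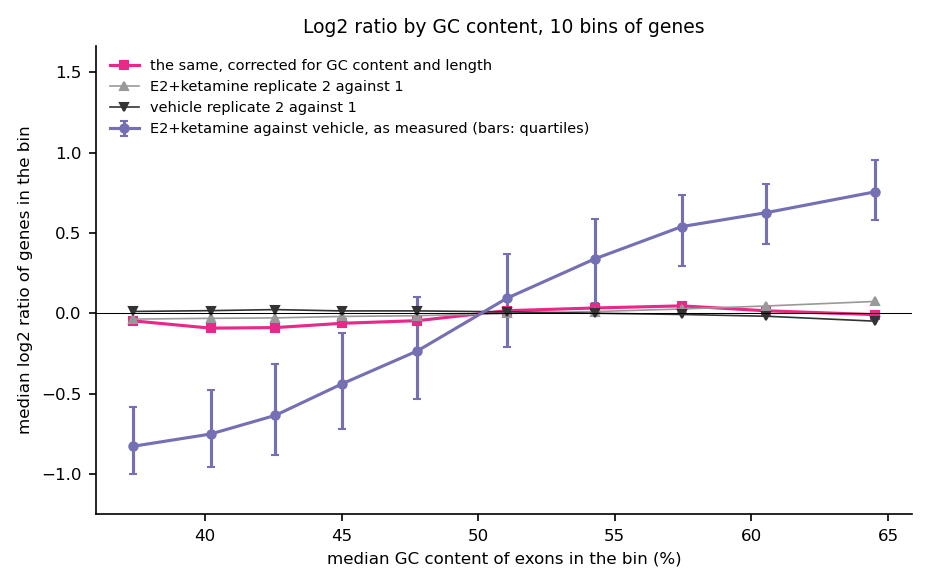
Median log2 ratio of genes (vertical axis) in 10 bins of equal size by the GC content of their exons (horizontal axis, in percent); the bars give the quartiles of E2+ketamine against vehicle, and the other lines show the same after correction and the replicates of each group against each other. The measured medians climb from -0.83 in the lowest bin to 0.76 in the highest, while the corrected ones stay between -0.09 and 0.05.

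After each library was corrected for GC content and exon length, 360 of 15351 genes were changed (2.35%), 245 higher (1.6%) and 115 lower (0.749%). Under the adjusted p alone, 24.4% of genes were higher and 29.0% lower in the corrected fit. Past both thresholds in both fits were 212 genes, 144 risen and 68 fallen, each with the same sign in both. A further 148 genes were changed only in the corrected fit, and 1522 genes passed the adjusted p in both fits with opposite signs. The correction takes away every difference that follows GC content or length, whether it arose in the cells or in the libraries. In the corrected fit the correlation with GC content was 0.05.

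The label of the cells was checked against marker genes. Of 26 markers of microglia and macrophages, 8 had enough counts to be tested, and CD163, FCGR3A, SALL1, C1QA, C1QB and C1QC had 0 counts in the 8 libraries of the vehicle, E2, ketamine and E2+ketamine groups. P2RY12, a purinergic receptor that marks microglia, had 7 and 2 counts in the vehicle libraries and 1 and 4 in the E2+ketamine libraries, and CX3CR1 had 0 in all 4. TMEM119 had 1 and 2 counts in vehicle and 2 and 4 with E2+ketamine. Markers that define microglia in tissue were thus at 0 or near the floor of 3 counts in these cells. Among the more abundant genes of the list were RUNX1 at 12.8 CPM per kb of exon and CD68 at 11.1, neither of which is restricted to microglia. The summed level of the list was 224 CPM in each vehicle library and 190 and 188 CPM in the E2+ketamine libraries. Of its 8 tested genes, 3 rose and 1 fell, and after correction 2 rose and 2 fell.

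Markers of fibroblasts and pericytes were the most abundant of the cell type lists, with COL1A1 at 798 CPM per kb and VIM at 622. They summed to 6173 and 6228 CPM in vehicle and to 7541 and 7830 CPM with E2+ketamine. Of the 11 tested of 15, 6 rose and 3 fell (4 and 2 after correction), while COL3A1 and LUM had at most 2 counts in each of the 4 libraries. Of the neuron markers 8 of 15 were tested, with summed levels of 113 and 112 CPM in vehicle and 146 and 147 CPM with E2+ketamine, nearly all from the tubulin TUBB3 (37.9 CPM per kb). DCX, STMN2 and GAD2 had 0 counts. Astrocyte markers (7 of 9 tested) summed to 188 and 191 CPM in vehicle and 113 and 119 CPM with the combination, most of it from the gap junction gene GJA1 (36.6 CPM per kb), while AQP4 had 0 counts. Oligodendrocyte markers (5 of 10 tested) summed to 280 and 270 CPM in vehicle and 393 and 406 CPM with the combination, most of it from CNP (45.5 CPM per kb), with OLIG1 at 0. Endothelial markers (8 of 10 tested) summed to 9.33 and 10.1 CPM in vehicle and 12.2 and 12.1 CPM with the combination, led per kb by TIE1 at 1.33, with PECAM1 at 0 in the 4 libraries. Epithelial markers (7 of 10 tested) summed to 573 and 561 CPM in vehicle and 787 and 797 CPM with the combination, most of it from the keratin KRT18 (309 CPM per kb). The part of these markers in the other results was not tested.

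The interferon-stimulated genes are described first. OAS3, which makes the activator of the antiviral ribonuclease RNase L, was at 8.53 and 8.9 CPM in the vehicle libraries and at 23.7 and 25.6 CPM in the E2+ketamine libraries. ISG15, a ubiquitin-like protein attached to other proteins after interferon, was at 27.9 and 28.2 CPM in vehicle and 71.9 and 75.6 CPM with E2+ketamine. MX1, a dynamin-like antiviral GTPase, was at 1.41 and 1.85 CPM in vehicle and 5.91 and 5.51 CPM with E2+ketamine. For each of the 3 genes, both treated libraries lay above both vehicle libraries. The log2 fold changes were 1.50 for OAS3 (standard error 0.075, adjusted p = 8.43e-24), 1.4 for ISG15 (0.049, 4.41e-30) and 1.81 for MX1 (0.17, 2.27e-13). Corrected for GC content and length they were 1.53, 0.66 and 1.54. The study itself picked OAS3, ISG15, MX1, MX2, OAS1 and OAS2 from these samples, so their direction is not independent evidence. The same holds for C1R, IRF7, IRF9, JAK1 and JAK2 below, and for STAT3, SOCS1 and SOCS3, which the study also names.

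Over the whole type I interferon list, the median log2 fold change was 0.37, against -0.03 for all genes. With the correction for GC content and length, 32 of the 50 genes rose and 2 fell, and the median was 0.47. IFITM1, a membrane protein that blocks viral entry, rose by 1.66 (1.37 and 1.06 CPM in vehicle, 4.48 and 3.22 with E2+ketamine; corrected 1.23). IFIT5 and SLFN5 were the largest falls, by 0.98 and by 0.88, and in the corrected fit they were at -0.23 (adjusted p = 0.0145) and -0.12 (adjusted p = 0.509). MX2 and OAS1, paralogs of MX1 and OAS3, rose from low levels, MX2 by 2.03 and OAS1 by 2.09 (corrected 2.11 and 2.38). OAS2 had a log2 fold change of 0.79 and did not pass the test (standard error 0.61, adjusted p = 0.243). The genes of the list summed to 1191 and 1199 CPM in the vehicle libraries and to 1603 and 1619 CPM in the E2+ketamine libraries.

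The promoters of OAS3, ISG15 and of TAP1, a peptide transporter described below, are shown because their genes moved together and hold the core of the interferon-stimulated response element. Each is the 300 bases from 250 before to 50 after the start of the gene, from RefSeq on build GRCh38.p14, read 5′ to 3′ on the strand of the gene: OAS3 at chr12:112938224-112938523 on the plus strand, ISG15 at chr1:1013247-1013546 on the plus strand and TAP1 at chr6:32853655-32853954 on the minus strand. Capitals mark matches of GAAANNGAA on either strand, and adjoining matches overlap in ISG15 and TAP1.
OAS3: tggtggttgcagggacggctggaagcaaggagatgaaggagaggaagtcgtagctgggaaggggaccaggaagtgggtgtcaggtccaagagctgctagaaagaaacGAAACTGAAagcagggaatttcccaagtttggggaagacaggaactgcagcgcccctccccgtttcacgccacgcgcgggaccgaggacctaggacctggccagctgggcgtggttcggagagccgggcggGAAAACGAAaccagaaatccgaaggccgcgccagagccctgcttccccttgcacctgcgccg
ISG15: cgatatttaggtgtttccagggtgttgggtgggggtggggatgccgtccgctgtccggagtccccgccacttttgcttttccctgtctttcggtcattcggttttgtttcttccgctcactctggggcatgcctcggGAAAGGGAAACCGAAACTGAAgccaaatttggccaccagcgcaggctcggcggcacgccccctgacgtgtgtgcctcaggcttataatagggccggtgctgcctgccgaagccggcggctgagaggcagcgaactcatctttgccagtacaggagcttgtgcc
TAP1: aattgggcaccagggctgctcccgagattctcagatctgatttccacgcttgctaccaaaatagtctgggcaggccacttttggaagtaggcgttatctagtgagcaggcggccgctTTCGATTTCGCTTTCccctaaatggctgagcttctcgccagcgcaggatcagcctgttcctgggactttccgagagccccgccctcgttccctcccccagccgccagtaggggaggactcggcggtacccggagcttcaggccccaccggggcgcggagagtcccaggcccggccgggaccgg
OAS3 holds 2 matches, ISG15 holds 3 and TAP1 holds 2. Among the 41 tested genes of the interferon list with a promoter sequence (82% of the 50), 26 hold a match (63.4%), against 2257 of all 27195 promoters (8.3%). The STAT motif TTCNNNGAA was present in 12 of the 41 (29.3%), against 7.89% of all promoters. A match did not always go with a rise: IFIT5, which fell (by 0.98, corrected -0.23), holds 3. Among genes that rose, MX1 and IFITM1 hold 2 each, while OAS1 and the complement gene C1R hold 0. Matches among risen and among fallen members of the list were not counted. A match is a description of the letters and says nothing of what binds there.

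**Figure D3:**
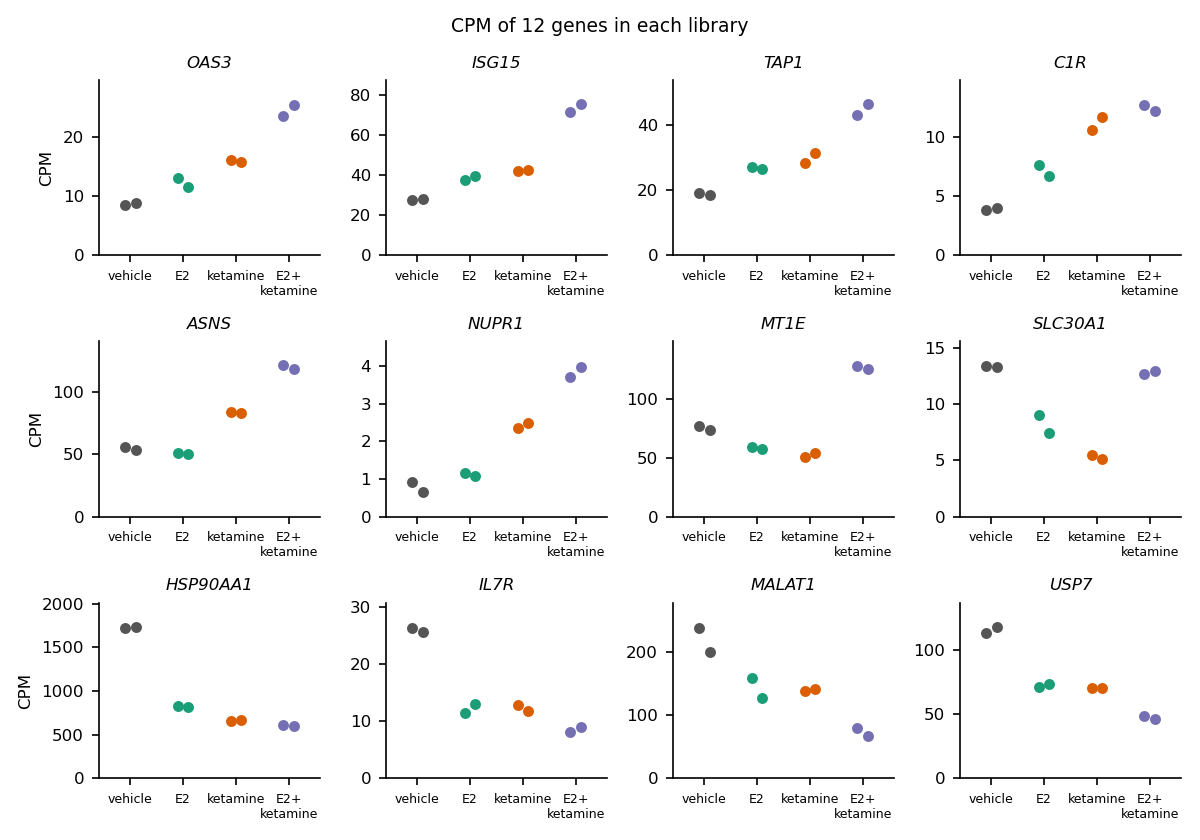
CPM (vertical axes, from 0) of 12 genes in each library of the vehicle, E2, ketamine and E2+ketamine groups, a point for each library. OAS3, ISG15 and TAP1 are highest with the combination (23.7 and 25.6 CPM for OAS3), MT1E and SLC30A1 are lower in both single treatments than in vehicle and with the combination, and HSP90AA1, IL7R, MALAT1 and USP7 are lowest with the combination.

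Upstream of these genes stand the receptors, kinases and STAT factors. Of 27 genes of the JAK-STAT chain, 13 rose and 9 fell, with a median of 0.24 (corrected 0.16), and with the correction 16 rose and 6 fell. The kinase JAK1 was at 127 and 133 CPM in vehicle and 79.4 and 77.5 CPM with E2+ketamine, a fall by 0.73 that remained at -0.62 in the corrected fit. JAK2 fell by 1.06, but its corrected value was -0.24 (adjusted p = 0.0712). STAT3, at 133 and 134 CPM in vehicle and 159 and 155 CPM with the combination, rose by 0.24 (standard error 0.029) and by 0.25 after correction. STAT5A rose by 1.15 and the interferon regulatory factor IRF7 by 1.04, and the corrected values were 0.64 and 0.18. IRF9, a subunit of the interferon-activated complex, rose by 0.75 and by 0.56 after correction. IL7R, the interleukin-7 receptor chain, fell by 1.59 from 26.4 and 25.7 CPM to 8.19 and 9.07 CPM (corrected -0.97), and LIFR, the receptor of leukemia inhibitory factor, fell by 1.15 (corrected -0.32). STAT4 was at 0.327 and 0.168 CPM in vehicle and 0.169 and 0.136 CPM with E2+ketamine, and no difference was detectable at this depth (adjusted p = 0.417).

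Of 17 inhibitors of the chain, 4 rose and 9 fell, with a median of -0.54 (corrected -0.18). Corrected for GC content and length, 9 fell and the rest did not pass. The phosphatase PTPN11 was at 318 and 323 CPM in the vehicle libraries and 138 and 135 CPM in the E2+ketamine libraries, without overlap, and fell by 1.23 (corrected -0.69). SOCS6 fell by 1.15 (corrected -0.37). SOCS1, which inhibits JAK kinases, rose by 1.20 from under 1 CPM, but the corrected value was 0.28 (adjusted p = 0.393), and SOCS3 rose by 0.47 as measured and fell by 0.13 after correction.

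Antigen presentation by MHC class I is a target of interferon. Of 19 genes of heavy chains, peptide loading and their regulators, 14 rose and 3 fell, with a median of 0.56 (corrected 0.27), and with the correction 14 rose and the rest did not pass. NLRC5, the transactivator of MHC class I genes, was at 3.53 and 3.29 CPM in vehicle and 11.6 and 9.83 CPM with E2+ketamine, a rise by 1.65 (standard error 0.11, adjusted p = 1.42e-18). TAP1, which carries peptides into the endoplasmic reticulum, was at 19 and 18.4 CPM in vehicle and 42.8 and 46.3 CPM with E2+ketamine, a rise by 1.25 (0.062, 7.76e-24). Both kept their direction in the corrected fit, at 1.18 and 0.75. PSMB9, a subunit of the immunoproteasome outside this list, rose by 1.44 (corrected 1.19). The largest falls of the list, PDIA3 by 0.45 and ERAP1 by 0.30, turned to 0.10 and 0.41 with the correction. The list summed to 2897 and 2849 CPM in vehicle and to 3438 and 3429 CPM with the combination. HLA genes resemble each other, and read pairs that mapped to more than 1 place were not counted.

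Of 16 complement genes, 7 rose and 4 fell, with a median of 0.69 (corrected 0.54), and 8 rose and 1 fell after correction. Their summed level went the other way, from 551.3 and 559.8 CPM in vehicle to 443.7 and 430.5 CPM with E2+ketamine. C1R, the protease that starts the classical pathway, was at 3.86 and 3.99 CPM in vehicle and 12.7 and 12.2 CPM with E2+ketamine, and rose by 1.67 (standard error 0.097, corrected 1.35). Its inhibitor SERPING1 rose by 1.16 (corrected 0.85). CD59, which protects cells from the complement pore, fell by 0.79 from 366 and 380 CPM to 221 and 210 CPM, and by 0.41 after correction, while CD55 fell by 0.51 and was at 0.18 after correction (adjusted p = 0.127).

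Of 20 inflammatory cytokines and chemokines, 8 rose and 2 fell, with a median of 0.47 (corrected 0.68), and 9 rose and 3 fell after correction. In sum they were lower, at 462.2 and 478.1 CPM against 507.7 and 508.0 CPM in vehicle. GDF15, a cytokine raised by cell stress that is also on the stress response and p53 lists, was at 1.55 and 1.86 CPM in vehicle and 7.55 and 8.48 CPM with E2+ketamine, a rise by 2.23 (corrected 1.61). CX3CL1, a membrane-bound chemokine, rose by 1.61 (corrected 1.24) from 0.507 and 0.52 CPM to 1.66 and 1.48 CPM. IL6, which the study names, was at 0.964 and 1.06 CPM in vehicle and 1.5 and 1.69 CPM with the combination. Its rise by 0.66 (standard error 0.28, adjusted p = 0.0305, corrected 0.91) was no longer past the test at 0.57 without E2+ketamine replicate 2, at 0.59 without vehicle replicate 1 and at 0.73 without vehicle replicate 2. TGFB2, a growth factor at 315 and 321 CPM in vehicle, fell by 0.64, and by 0.08 after correction. The number of fallen cytokines was 1 without E2+ketamine replicate 2 and 1 without vehicle replicate 1.

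Of the 31 lists that are not cell type markers, the integrated stress response had the largest share of members risen as measured, 30 of the 39 tested. ASNS, which makes asparagine, was at 55.9 and 53.7 CPM in vehicle and at 121 and 118 CPM with E2+ketamine. NUPR1, a small stress-induced chromatin protein, was at 0.932 and 0.655 CPM in vehicle and at 3.72 and 3.97 CPM with E2+ketamine. Neither gene's groups overlapped. ASNS rose by 1.13 (standard error 0.036, adjusted p = 1.7e-31) and by 1.39 after correction, and NUPR1 rose by 2.27 (0.21, 5.61e-14) and by 2.29. The median of the 39 genes was 0.36, and 11 rose and 1 fell by at least 1. After correction 23 rose and 10 fell, with a median of 0.24. The largest falls were the transfer RNA synthetase gene EPRS, by 1.02, and XPOT, which exports transfer RNA from the nucleus, by 0.91. Both are poor in GC and fell by 0.46 and by 0.25 after correction. In sum the list was at 4846 and 4875 CPM in vehicle and at 6741 and 6829 CPM with the combination.

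The unfolded protein response of the endoplasmic reticulum did not share this direction. Of its 22 genes, 8 rose and 12 fell, with a median of -0.29 (corrected -0.145), and with the correction 6 rose and 14 fell. XBP1, the factor spliced in this response, rose by 0.57 from 142 and 138 CPM to 203 and 212 CPM (corrected 0.49), and SYVN1, a ligase that removes misfolded proteins, rose by 0.73 (corrected 0.16). SYVN1's partner SEL1L fell by 0.98 and the chaperone DNAJC3 by 0.96, with corrected values of -0.22 and -0.28. The list summed to 5767 and 5782 CPM in vehicle and to 5121 and 5091 CPM with the combination.

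HSP90AA1, the inducible cytosolic HSP90 chaperone, was at 1720 and 1730 CPM in the vehicle libraries and at 614 and 595 CPM in the E2+ketamine libraries. CHORDC1, a cochaperone of HSP90, was at 60.2 and 60.7 CPM in vehicle and at 21.6 and 20.2 CPM with E2+ketamine. Both fell without overlap, HSP90AA1 by 1.51 (standard error 0.022, adjusted p = 7.75e-45) and CHORDC1 by 1.53 (0.056, 3.53e-29). After correction the falls were by 1.16 and by 0.63. Of the 24 genes of the list, 15 fell, 6 of them by at least 1, and 6 rose, with a median of -0.49. With the correction 18 fell and 2 rose, with a median of -0.44. The rises of the small heat shock protein HSPB1, by 0.71, and of the factor HSF1, by 0.67, turned to -0.08 and -0.09 with the correction. The list summed to 9781 and 9900 CPM in vehicle and to 6578 and 6569 CPM with the combination.

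**Figure D4:**
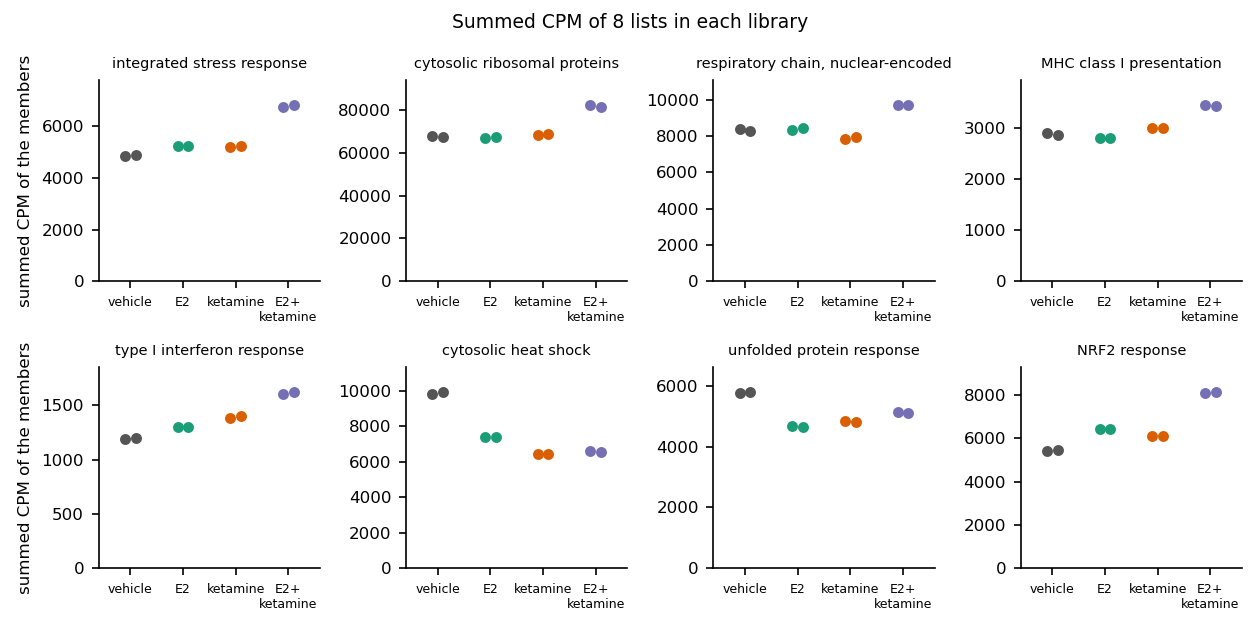
Summed CPM (vertical axes, from 0) of the members of 8 lists in each library of the vehicle, E2, ketamine and E2+ketamine groups, a point for each library. The integrated stress response reaches 6741 and 6829 CPM with the combination, against 4846 and 4875 CPM in vehicle, and the heat shock list falls from 9781 and 9900 CPM to 6578 and 6569 CPM.

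Metallothioneins bind zinc and copper, and their genes carry the metal response element. MT1E was at 77 and 73.6 CPM in the vehicle libraries and at 128 and 125 CPM in the E2+ketamine libraries. It was lower in the single treatments, at 59.4 and 57.6 CPM with E2 and 50.6 and 53.6 CPM with ketamine. MT2A was at 307 and 293 CPM in vehicle, 505 and 540 CPM with the combination, 296 and 310 CPM with E2 and 273 and 278 CPM with ketamine. The combination lay above the other 3 groups for both genes. MT1E rose against vehicle by 0.75 (standard error 0.039, corrected 0.19), MT2A by 0.80 (0.028, corrected 0.38), MT1F by 0.78 (0.11, corrected 0.54) and MT1X by 0.93 (0.099, corrected 0.80). SLC30A1, the zinc exporter of the plasma membrane, was at 13.4 and 13.3 CPM in vehicle, 9.0 and 7.44 CPM with E2, 5.45 and 5.1 CPM with ketamine, and 12.7 and 12.9 CPM with the combination. Against vehicle its log2 fold change was -0.06 (standard error 0.092, adjusted p = 0.574), and 0.59 in the corrected fit. The study named these 5 genes for the combination, so their direction is not independent evidence. Reads that fit more than 1 of the near-identical metallothionein genes were not counted, which leaves the level of each uncertain.

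Across the 21 metallothionein and zinc transport genes tested, 7 rose and 9 fell. Their median was -0.06 and turned to 0.0018 under upper-quartile scaling, so no direction is given for the group. With the correction 9 rose and 6 fell, with a median of 0.14. The importer genes SLC39A6 and SLC39A10 fell by 1.15 and by 1.08 (corrected -0.58 and -0.33), and SLC39A13 rose by 0.96 (corrected 0.29).

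The promoters of MT2A, MT1X and SLC30A1 are shown because they hold the metal response element and their genes were higher with the combination than with either agent alone. MT1E and MT1F differed more from the single treatments than MT2A did, but no promoter sequence was found for them. The promoters shown come from RefSeq on build GRCh38.p14, MT2A at chr16:56608334-56608633 and MT1X at chr16:56682220-56682519 on the plus strand and SLC30A1 at chr1:211579112-211579411 on the minus strand, and are read on the strand of the gene. Capitals mark matches of TGCGCNC or TGCACNC on either strand.
MT2A: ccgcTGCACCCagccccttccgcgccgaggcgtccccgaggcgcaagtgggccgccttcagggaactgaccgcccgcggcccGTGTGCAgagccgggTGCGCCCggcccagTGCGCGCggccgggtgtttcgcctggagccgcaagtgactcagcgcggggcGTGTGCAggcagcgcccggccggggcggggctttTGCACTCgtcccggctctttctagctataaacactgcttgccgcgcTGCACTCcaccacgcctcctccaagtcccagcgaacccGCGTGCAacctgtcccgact
MT1X: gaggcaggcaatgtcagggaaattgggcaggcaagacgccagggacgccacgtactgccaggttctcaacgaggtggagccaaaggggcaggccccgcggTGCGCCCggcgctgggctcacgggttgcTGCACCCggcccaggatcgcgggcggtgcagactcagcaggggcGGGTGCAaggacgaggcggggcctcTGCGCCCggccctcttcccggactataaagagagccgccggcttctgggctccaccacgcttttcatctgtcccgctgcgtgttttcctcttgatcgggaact
SLC30A1: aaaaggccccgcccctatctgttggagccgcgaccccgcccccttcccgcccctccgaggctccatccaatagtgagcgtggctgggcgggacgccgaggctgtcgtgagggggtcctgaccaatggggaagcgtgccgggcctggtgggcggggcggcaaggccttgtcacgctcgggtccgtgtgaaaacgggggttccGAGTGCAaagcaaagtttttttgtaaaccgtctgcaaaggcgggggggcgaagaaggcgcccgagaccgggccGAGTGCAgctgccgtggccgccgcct
MT2A holds 8 matches, MT1X holds 4 and SLC30A1 holds 2. Of all 27195 promoters, 7996 (29.4%) hold at least 1 match, so a single match is common.

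Among 24 genes of the NRF2 antioxidant response, 15 rose and 8 fell, with a median of 0.20 (corrected 0.17), and 13 rose and 8 fell after correction. FTL, the light chain of the iron store ferritin, rose by 1.04 from 1380 and 1400 CPM to 2870 and 2850 CPM, and by 0.60 after correction. SQSTM1, a receptor of autophagy, rose by 0.93 (corrected 0.45). GCLC, which makes the first intermediate of glutathione, fell by 0.89, and TXN, thioredoxin, fell by 0.84 (corrected -0.41 and -0.08). The list summed to 5397 and 5446 CPM in vehicle and to 8095 and 8117 CPM with the combination. Of 24 p53 targets, 13 rose and 8 fell, with a median of 0.54 (corrected 0.30), and 12 rose and 5 fell after correction. FDXR, a mitochondrial ferredoxin reductase, rose by 1.25 (corrected 0.56), while RRM2B, a ribonucleotide reductase subunit, fell by 1.06 and the kinase gene PLK2 by 0.78 (corrected -0.22 and -0.49).

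The receptors of the agents were scarce. ESR1 had 0 counts in both vehicle libraries and was not tested. ESR2 was at 0.441 and 0.537 CPM in vehicle and 0.54 and 0.205 CPM with E2+ketamine (adjusted p = 0.453). GPER1 was at 0.834 and 1.16 CPM in vehicle and 1.81 and 1.71 CPM with the combination. Its rise by 0.82 (adjusted p = 0.0032) was no longer past the test at 0.60 without vehicle replicate 1, and the corrected value was 0.18 (adjusted p = 0.588). Of 12 estrogen receptors and coregulators tested, 3 rose and 7 fell, with a median of -0.53 (corrected -0.285), and with the correction 9 fell and the rest did not pass. The coregulator genes NRIP1 and MED1 fell by 1.29 and by 1.04 (corrected -0.54 and -0.59), and the orphan receptor gene ESRRA rose by 0.67 (corrected -0.10). Of 28 genes known to respond to estrogen in breast cells, 15 rose and 5 fell, with a median of 0.47 (corrected 0.30), and with the correction 12 rose and 8 fell. PDGFB, a growth factor chain, rose by 1.37 and IGFBP4, which binds insulin-like growth factors, by 1.09 (corrected 0.76 and 0.38), while PDZK1 fell by 1.17 (corrected -0.77).

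Of the NMDA receptor genes, GRIN2A and GRIN2B had at most 6 counts in each of the 4 libraries and were not tested. GRIN1, the obligate subunit, was at 0.196 and 0.369 CPM in vehicle and 0.642 and 0.614 CPM with E2+ketamine. Its rise by 1.15 (adjusted p = 0.0135) was no longer past the test at 0.76 without vehicle replicate 1, and the corrected value was 0.38 (adjusted p = 0.483). GRIN2D was at 4.07 and 4.55 CPM in vehicle and 6.23 and 7.04 CPM with the combination, a rise by 0.62 (corrected -0.24, adjusted p = 0.0842). GRIN2C, at 1.47 and 1.7 CPM in vehicle, had a log2 fold change of 0.34 (adjusted p = 0.107). GRIN3B rose by 1.05 (corrected 0.13, adjusted p = 0.623), and GRIN3A fell by 2.21 from 0.67 and 0.52 CPM to 0.152 and 0.102 CPM (corrected -2.08). Of 9 glutamate receptor genes tested, 6 rose and 1 fell, or 3 rose without vehicle replicate 1, and with the correction 1 rose and 1 fell. The gene of this list that rose with the correction was GRINA, which is not a receptor subunit (0.82 as measured, 0.08 corrected). Of 25 genes of synaptic proteins and BDNF, 12 rose and 4 fell, with a median of 0.55, and with the correction 4 rose and 6 fell, with a median of 0.02. BDNF was at 30.2 and 29.2 CPM in vehicle and 31.2 and 28.9 CPM with E2+ketamine, and the groups overlapped (log2 fold change 0.02, standard error 0.057, adjusted p = 0.826), whereas the corrected fit gave 0.37. The scaffold gene DLG4 rose by 0.65 (corrected 0.34), the scaffold genes DLG1 and HOMER1 fell by 1.12 and by 1.02 (corrected -0.55 and -0.36), and SYN1 was at 0.56 (adjusted p = 0.184). Among 16 enzymes that act on ketamine or estradiol, 9 rose and 5 fell, with a median of 0.58 (corrected 0.11), and 7 rose and 1 fell after correction. CYP1A1, which hydroxylates estradiol, rose by 1.43 from 0.539 and 0.94 CPM to 1.98 and 2.0 CPM (corrected 1.19), and HSD17B14, a dehydrogenase of estradiol, by 1.13 (corrected 0.49). The dehydrogenase HSD17B4 fell by 0.88 (corrected -0.47).

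In protein synthesis, 49 of 76 cytosolic ribosomal protein genes rose and 22 fell, with a median of 0.23 (corrected 0.16), and with the correction 47 rose and 24 fell. Summed, they were at 67870 and 67350 CPM in vehicle and at 82480 and 81390 CPM with the combination. RPS2 rose by 0.86 from 3050 and 2950 CPM to 5430 and 5480 CPM (corrected 0.22). RPS24 moved the other way, from 792 and 814 CPM to 390 and 387 CPM, a fall by 1.05 that was as large in the corrected fit at -1.10, and RPL7 fell by 0.80 (corrected -0.57). Ribosomal protein genes have many pseudogene copies, and pairs shared with them were not counted. Of 27 genes of the mTOR pathway and of elongation, 14 rose and 12 fell, with a median of 0.13 (corrected 0.02), and with the correction 10 rose and 9 fell. EIF4EBP1, the translation inhibitor that mTOR phosphorylates, rose by 1.02 (corrected 0.31), and EIF4E, which it binds, fell by 1.24 from 62.7 and 61.8 CPM to 25.9 and 26.7 CPM (corrected -0.54). MAPK3 rose by 0.84 (corrected 0.13). EEF2, the elongation factor that the study names, rose by 0.63, and by 0.03 after correction.

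Among 74 nuclear-encoded genes of the respiratory chain, 35 rose and 25 fell, with a median of 0.07 (corrected 0.125), and with the correction 42 rose and 19 fell. The complex I genes NDUFS7 and NDUFS8 rose by 1.04 and by 0.98 (corrected 0.25 for each), and ATP5F1 and UQCRC2 fell by 0.91 and by 0.80 (corrected -0.26 and -0.35). Of 34 genes of glycolysis and hypoxia, 19 rose and 12 fell, with a median of 0.20 (corrected -0.02), and with the correction 12 rose and 15 fell. PFKL and ALDOA, glycolytic enzymes, rose by 0.87 and by 0.67 (corrected 0.15 and 0.05). P4HA1, which hydroxylates collagen, and BNIP3L, a receptor of mitophagy, fell by 1.10 and by 0.91 (corrected -0.50 and -0.21). Of 32 genes of cholesterol and fatty acid synthesis, 18 rose and 13 fell, with a median of 0.18 (corrected -0.01), and with the correction 10 rose and 14 fell. The enzyme HMGCS1, which stands early in cholesterol synthesis, fell by 1.33 and by 0.64 after correction. It went from 195 CPM in each vehicle library to 77.4 and 77.8 CPM. TM7SF2 rose by 0.98 (corrected 0.27). Among 28 genes of prostanoid and icosanoid metabolism, 8 rose and 4 fell, with a median of 0.30 (corrected 0.05), and 5 rose and 4 fell after correction. Their summed level was lower, at 749.7 and 750.2 CPM against 860.4 and 850.0 CPM in vehicle. PTGIS, prostacyclin synthase, rose by 1.21 (corrected 1.10), GGT1 by 1.27 (corrected 0.62), and LTA4H and PTGES3 fell by 0.79 and by 0.75 (corrected -0.32 and -0.21).

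Of 42 genes of the cell cycle and replication, 27 fell, 7 of them by at least 1, and 13 rose, with a median of -0.40 (corrected -0.17). With the correction 26 fell and 8 rose. The mitotic kinesin KIF11 fell by 1.16 and RRM1, a ribonucleotide reductase subunit, by 1.13 from 360 and 366 CPM to 163 and 169 CPM (corrected -0.51 and -0.66). The factor E2F1 rose by 0.96 (corrected 0.30) and CDT1, which licenses replication, by 0.75 (corrected -0.01, adjusted p = 0.869). Of 24 immediate early factors, 15 rose and 2 fell, with a median of 0.34 (corrected 0.06), and with the correction 10 rose and 6 fell. FOSB and JUND, subunits of AP-1, rose by 1.44 and by 1.06 (corrected 1.01 and 0.12), and KLF6 fell by 0.67 (corrected -0.42). Of 16 C/EBP and NF-kB factors, 10 rose and 4 fell, with a median of 0.63, and after correction 5 rose and 3 fell, with a median of 0.07. CEBPD, a factor of the acute phase, was at 4.74 and 4.6 CPM in vehicle and 19.1 and 19.3 CPM with E2+ketamine, and its corrected value was 1.21. CEBPB rose by 1.05 (corrected 0.21), and REL and CEBPG fell by 0.93 and by 0.75 (corrected -0.16 and -0.17).

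Of 26 targets of YAP, SRF and TGF-beta, 13 rose and 12 fell, with a median of 0.10 (corrected -0.05), and with the correction 9 rose and 13 fell. The contractile gene CNN2 and the factor SRF rose by 0.97 and by 0.86 (corrected 0.39 and 0.25), and TEAD1 and TGFBR1 fell by 0.87 and by 0.83 (corrected -0.29 and -0.11). Of 36 genes of matrix and hyaluronan, 16 rose and 11 fell. Their median of -0.01 turned to 0.05 under upper-quartile scaling, so no direction is given for the group. With the correction 9 rose and 18 fell, with a median of -0.21, and the summed level went from 26260 and 26840 CPM to 24740 and 24990 CPM. HAS2, a hyaluronan synthase, fell by 1.45 from 9.37 and 9.95 CPM to 3.95 and 3.12 CPM (corrected -0.68), COL8A1 fell by 0.80 (corrected -0.53), and TNXB and MMP2, a gelatinase, rose by 1.24 and by 1.18 (corrected 0.58 and 0.83). Among 24 long noncoding RNAs, 16 fell and 2 rose, with a median of -0.31 (corrected 0.02), or 1 rose without E2+ketamine replicate 1 or without vehicle replicate 1. With the correction 8 fell and 10 rose. MALAT1, a nuclear RNA, was at 239 and 200 CPM in vehicle and 80.4 and 67.6 CPM with E2+ketamine and was at -0.85 after correction, and TUG1 fell by 1.07 (corrected -0.53). Of 32 replication-dependent histone genes, 5 rose and 3 fell, or 1 fell without E2+ketamine replicate 2 and 6 without vehicle replicate 2. Their median was -0.04, or 0.02 under upper-quartile scaling, so no direction is given. After correction 3 rose and 7 fell, with a median of -0.15. HIST1H1C rose by 0.94 (corrected 0.50), and HIST1H1E fell by 0.93 (corrected -1.56). Of 19 genes of the SIN3 and HDAC corepressor complexes, 4 rose and 13 fell, with a median of -0.49 (corrected -0.17), and 6 rose and 10 fell after correction. SIN3A, which the study names, went from 100 and 104 CPM to 66.6 and 62.3 CPM, a fall by 0.67 (corrected -0.18), KDM5A and HDAC2 fell by 1.04 and by 0.94 (corrected -0.44 and -0.17), and SIN3B and BRMS1 rose by 0.56 and by 0.57 (corrected 0.17 and -0.06).

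**Figure D5:**
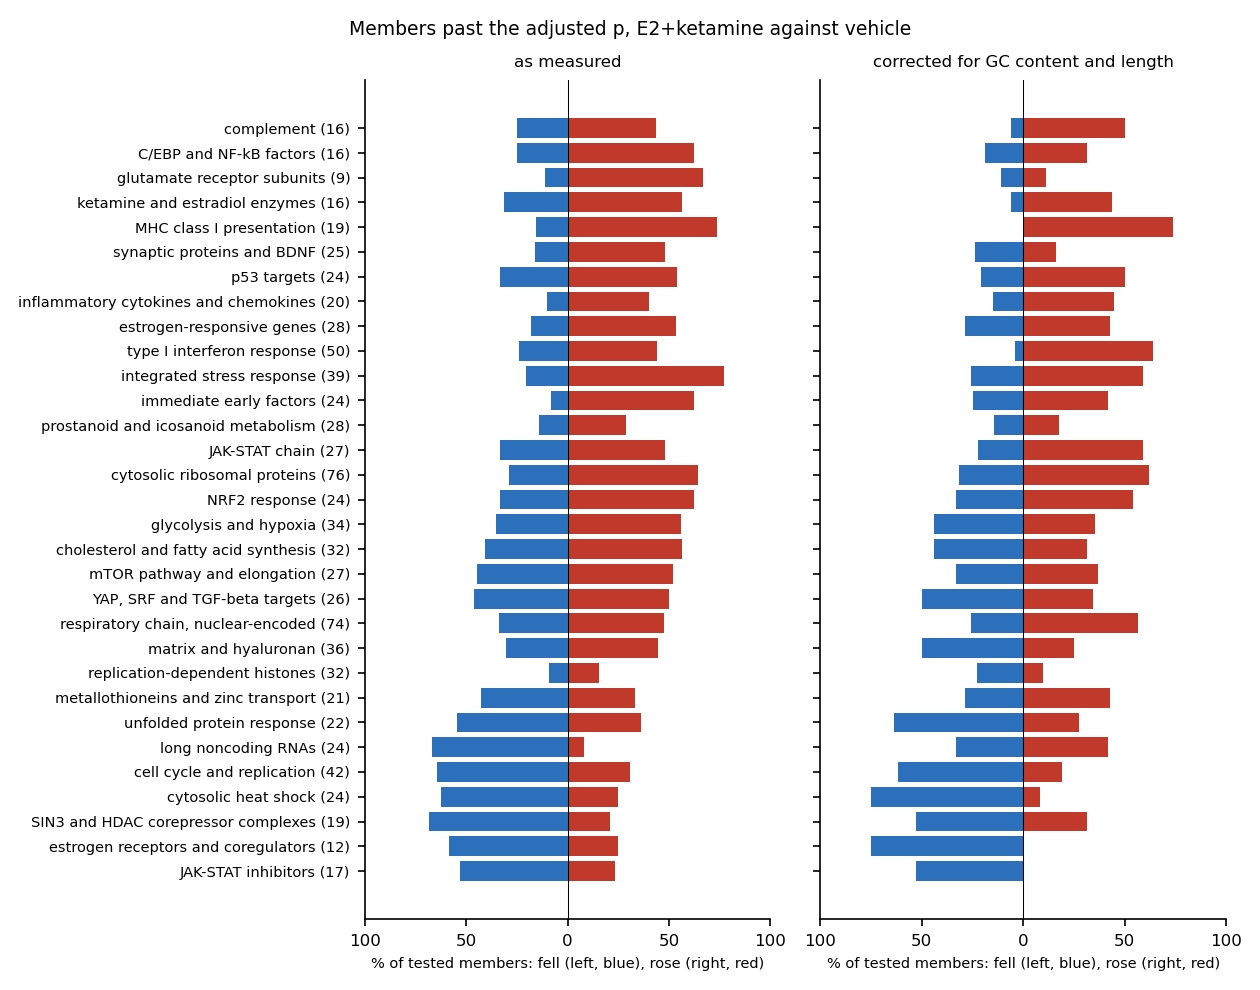
Share of the tested members (horizontal axes, in percent) that rose (red, to the right) and fell (blue, to the left) past the adjusted p in 31 lists, as measured and after correction for GC content and length, with the number of members tested in brackets. In the integrated stress response 30 of 39 rose as measured and 23 after correction, and in the heat shock list 15 of 24 fell as measured and 18 after correction; the medians of the metallothionein, histone and matrix lists change sign under upper-quartile scaling.

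Taken over the 38 lists, 107 of the 908 list members tested were changed (11.8%), close to the 11.0% of all genes. In the corrected fit 43 of 907 were changed (4.74%), against 2.35% of all genes. Outside the lists, the largest rises among genes with a mean of at least 5 CPM included EMID1, a secreted protein, by 1.83 from 2.58 and 1.83 CPM to 7.52 and 8.2 CPM. APOE, the lipid carrier, was at 3.12 and 3.02 CPM in vehicle and 9.29 and 11.9 CPM with E2+ketamine, a rise by 1.79. SLC6A9, a glycine transporter, was at 4.82 and 5.09 CPM in vehicle and 15.0 and 14.7 CPM with the combination, a rise by 1.58. The groups did not overlap in any of the 3 genes, which the rule for naming them required, and their corrected values were 1.02, 0.87 and 0.93. CIB2, a calcium-binding protein, rose by 1.62 (corrected 0.96) and TLE2, a corepressor, by 1.6 (corrected 0.87). The largest falls included NLRP10, by 1.64 from 7.42 and 7.92 CPM to 2.33 and 2.59 CPM (corrected -1.17). ARHGAP18, a GTPase-activating protein, fell by 1.56 and LINC00641 by 1.53, with corrected values of -0.80 and -0.87. The genes most changed after correction included IGFBP7, which rose by 1.13 as measured and by 1.24 after correction, from 38.4 and 35.9 CPM to 81.0 and 81.9 CPM. USP7, a deubiquitinase that acts on MDM2 and p53, was at 113 and 118 CPM in vehicle and 48.7 and 46.1 CPM with the combination, a fall by 1.28 (corrected -1.17). COPS5, the catalytic subunit of the COP9 signalosome, fell by 1.08 from 52.3 and 50.9 CPM to 24 and 24.6 CPM (corrected -1.13). KRTAP2-3 fell by 1.05 (corrected -1.46) and ZBED2 by 1.30 (corrected -1.19).

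The combination was then set beside its parts. The contrasts of E2, of ketamine and of E2+ketamine with vehicle share the vehicle libraries, so differences between the groups were tested directly. Against ketamine alone, 172 genes were changed by the combination (1.07%; 165 with the replicate block), 59 higher and 113 lower. Under the adjusted p alone, 27.3% of genes were higher and 30.2% lower. Against E2 alone, 180 genes were changed (1.12%; 174 with the replicate block), 94 higher and 86 lower, and 24.8% were higher and 25.5% lower under the adjusted p alone.

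The counts of changed genes against ketamine and against E2 were 106 and 107 under DESeq2 on all libraries, 56 and 44 under DESeq2 on the groups compared only, 76 and 80 among genes with at least 10 counts in every library, and 106 and 112 after correction for GC content and length. Against ketamine alone, ISG15 was higher by 0.80 with the combination, OAS3 by 0.63, TAP1 by 0.58 and ASNS by 0.53, each with both libraries above both ketamine libraries. As measured, the interferon list as a whole had no such direction against ketamine alone, with 16 genes higher and 16 lower and a median of -0.02. After correction 16 were higher and 7 lower (median 0.15). The corrected shares of all genes higher and lower are not given for this contrast, so no direction is read from that count. SLFN5 and IFIT5 were lower by 0.67 and by 0.42 (corrected -0.29 and -0.11). This contrast also followed GC content (Spearman correlation 0.60), and after correction the values were 0.39 for ISG15, 0.75 for OAS3, 0.34 for TAP1 and 0.68 for ASNS. C1R and GDF15 differed by 0.16 and 0.23 and did not pass (adjusted p = 0.0882 and 0.0634), and OAS1 was at 1.44 and 1.27 CPM with ketamine alone and at 1.42 and 1.28 CPM with the combination (adjusted p = 0.995). Against E2 alone, NUPR1 was higher by 1.79, MX1 by 1.66, ASNS by 1.24 and OAS3 by 0.99 (corrected 1.83, 1.60, 1.34 and 1.07). ASNS lay at 51.3 and 50.5 CPM with E2 alone and at 83.9 and 82.8 CPM with ketamine alone. MALAT1 was lower by 0.92 than with ketamine alone and by 0.96 than with E2 alone (corrected -0.56 and -0.70), and SLC39A10 was lower by 1.22 than with ketamine alone (corrected -0.89), where it was at 37.9 and 41.0 CPM.

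The interaction measures how far the combination departs from the sum of the single effects on the log2 scale. It passed both thresholds for 292 genes (1.82%; 288 with the replicate block), 69 above and 223 below 0, and under the adjusted p alone for 24.5% above and 13.1% below. Under upper-quartile scaling the balance by the adjusted p alone turned, with 2755 genes above and 3119 below against 3915 and 2094 as reported, and DESeq2 on the groups compared only gave 163 genes past both thresholds. Among the changed genes, interactions past the adjusted p were mostly opposite in sign to the change: 182 of the 715 risen genes passed below 0 and 38 above, and 576 of the 1050 fallen genes passed above and 34 below. The medians over all risen and all fallen genes were -0.33 and 0.30, so in the median, as measured, the combination moved them by less than the sum of E2 and ketamine. These genes were chosen by a contrast that shares libraries with the interaction. The interaction also followed GC content (Spearman correlation -0.288), and the risen and fallen genes differed in it (medians 61.0% and 40.3%). Corrected values of these counts and medians are not given, so no conclusion is drawn from them. The counts for lists that follow are also of interactions past the adjusted p. They are not given under upper-quartile scaling, which turned the balance over all genes, so the balance of each list there is not known. Under the scaling as reported, most members of several lists passed above 0. Of the 76 ribosomal protein genes, 70 passed above 0, with a median of 0.24, against 0.04 for all genes. The respiratory chain had 62 of 74 above 0, the integrated stress response 24 of 39 above and 2 below, and the unfolded protein response 17 of 22 above and 1 below. In the heat shock list 18 of 24 were above and 1 below. For HSP90AA1 the fall with the combination was smaller by 0.93 than the sum of the falls with E2 and ketamine. That gene was at 829 and 812 CPM with E2 and 662 and 668 CPM with ketamine. Not every member above 0 fell: HSPB1, with an interaction of 0.21, rose by 0.71 with the combination. In the metallothionein and zinc list 12 of 21 were above and 1 below. Under the correction for GC content and length, 3978 of all 15351 genes passed above 0 and 1765 below. Above 0 were 65 ribosomal and 52 respiratory genes, 26 of the stress response, 17 of the unfolded protein response, 19 of the heat shock list and 13 of the metallothionein and zinc list, and below 0 were 1, 1, 2, 1, 1 and 1 in the same order. Other lists had more interactions below 0 than above. In the matrix list 7 of 36 were above and 19 below (10 and 10 after correction), and in the cholesterol list 4 of 32 and 15 (8 and 12). Among p53 targets 3 of 24 were above and 11 below (4 and 9 after correction), and among immediate early factors 3 of 24 and 10 (3 and 8).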

How the data were processed

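RNA sequencing of HMC3 cells gave 16 libraries in 8 groups of 2, prepared with NuGEN amplification and sequenced as paired reads. The authors aligned the reads to hg19 with TopHat2 and Bowtie2, and the deposited values are described as counts per gene of uniquely mapped, non-discordant pairs from featureCounts 1.4.6, not normalized. The strand setting is not given, so genes that overlap on opposite strands are uncertain. The vehicle libraries held 61599174 and 60115434 counts and the E2+ketamine libraries 62804472 and 62698279, so that 3 counts, used as a floor, equal 0.049 to 0.0512 CPM there by the TMM-adjusted library sizes. The replicates of E2+ketamine and vehicle differed by 3.91 and 3.08 times the sampling variance, or by 1.955 and 1.54 times with halved counts.

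Counts were filtered with filterByExpr, which kept 16004 of 25370 genes, scaled by TMM and fitted with 1 mean per group over all 16 libraries in edgeR 4.0.16 (quasi-likelihood, 8 residual degrees of freedom, R 4.3.3). Contrasts were E2+ketamine against vehicle, ketamine and E2, and the interaction of both agents. P-values were adjusted by Benjamini-Hochberg over all genes tested. With 2 libraries against 2, an exact permutation test cannot reach 0.05. GC content and exon length came from GENCODE gene models on GRCh37, matched for 95.9% of the genes tested. A loess fit (span 0.5) on both for each library gave the offset of the corrected fit.

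The members and the gene lists were chosen with earlier results of these data known. The genes named are the 8 largest rises and falls that average at least 5 CPM and whose libraries do not overlap, the 6 largest each way in the corrected fit among genes changed in both fits, up to 2 each way in every list (averaging at least 1 CPM), the genes the study names, the receptors of the agents, and the 5 largest interactions each way among genes that average at least 5 CPM over the vehicle, E2, ketamine and E2+ketamine groups. Marker genes given as counts, and COL1A1, VIM, TIE1 and KRT18, follow from the marker lists. A few of the genes picked this way are left unreported. Of the genes tested, 75.7% had a RefSeq promoter sequence, and of the risen genes 67.4%, so motif shares of risen and fallen genes are not given. Alternatives were DESeq2 1.42.0, edgeR on the groups compared only, other filters and scalings, the replicate number as a block, the correction with and without it, halved counts and each library left out. The crossed block was added after the data were seen.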

Additional observations from a re-analysis of the deposited data

Results flagged for a closer look

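The effect of ketamine in the presence of E2 differed from its effect in the absence of E2, by the test of the difference itself (edgeR quasi-likelihood test of the interaction, Benjamini-Hochberg adjusted p under 0.05 and a log2 size of at least 1), for 292 genes. The values of single genes follow, without an explanation.

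Among genes of metal handling, the difference was 1.97 on the log2 scale for SLC30A1, the zinc exporter (standard error 0.14, adjusted p = 1.1e-16). It was 1.65 for MT1E (0.057, 3.54e-28), 1.49 for MT1F (0.17, 3.5e-10) and 1.3 for MT1X (0.14, 1.79e-10). MT1E was at 77 and 73.6 CPM in vehicle, 50.6 and 53.6 with ketamine, 59.4 and 57.6 with E2, and 128 and 125 with both. The study named these genes for the combination.

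ACTG2, a smooth muscle actin, was at 20.9 and 24.6 CPM in vehicle, 13.7 and 13.7 with ketamine, 19.9 and 18.4 with E2, and 29.7 and 28.5 with both, with a difference of 1.33 (standard error 0.091). For CHORDC1 the difference was 1.26 (0.081): the gene was at 60.2 and 60.7 CPM in vehicle and between 19.9 and 26.4 CPM in each library of the other 3 groups.

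Differences below 0 were found for COL9A3, a collagen chain, at -1.38 (standard error 0.15), PTGIS at -1.35 (0.15), FER1L4 at -1.34 (0.094), MEGF6 at -1.34 (0.076) and YPEL1 at -1.32 (0.11). FER1L4 was at 9.15 and 10.3 CPM in vehicle, 28.3 and 25.8 with ketamine, 16.4 and 16.7 with E2, and 17.2 and 19.2 with both. MEGF6 was at 19.2 and 20.4, 42.4 and 43.3, 32.1 and 31.6, and 26.4 and 28.2 CPM in the same order. In each of these 5 genes every library of the single treatments lay above both vehicle libraries, and every library with both agents lay below both libraries with ketamine alone. Against vehicle, COL9A3 was higher by 0.38 with both agents, no longer past the test at 0.21 without vehicle replicate 2. With the correction for GC content and length its direction turned, to -0.48.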

How the results depend on the processing

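The number of genes changed against vehicle was 1755 with the replicate number as a block and ran from 1421 to 1943 over the other alternatives (each library left out in turn gave 1623 to 1943), apart from the correction for GC content and length, which gave 360, or 354 with the block. Against ketamine, 172 genes became 106 under DESeq2 on all libraries, 56 under DESeq2 on the groups compared only, 76 with at least 10 counts in every library, and 106 or 102 (with the block) under the correction. Against E2, 180 became 107, 44, 80, and 112 or 104 in the same order. The 292 interactions became 163 under DESeq2 on the groups compared only. Changed list members fell from 107 to 43, or 42 with the block, under the correction.

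Of 185 named genes tested, the correction kept the call and direction of 145, though often not the size, weakened 27, brought BDNF past the test and turned 12, with or without the block: PDIA3 (0.104), ERAP1 (0.41, 0.411 with the block), HSPB1 (-0.075, -0.0751), HSF1 (-0.0872, -0.0875), H19 (-0.317), CD68 (-0.173, -0.174), TUBB3 (-0.271, -0.27), CSPG4 (-0.219), SOCS3 (-0.134), SLC30A1 (0.588), COL9A3 (-0.483) and MEGF6 (-0.215). Among these 12, SLC30A1 had not passed the test as measured (-0.06), so the correction brought it past the test too. The correction removes what follows GC content by its construction, and its share from cells or libraries was not tested. No other alternative turned a named gene.

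For genes above 2 log2 CPM, the differences between replicates of E2+ketamine and vehicle correlated at -0.12 across genes, so a block with the E2+ketamine numbers crossed was added after the data were seen, and it gave 1755 genes. Low counts were even more often than high ones (65.3% from 1 to 9, 49.8% from 500), so what 1 count stands for is uncertain, and halved counts gave 1668 genes. Genes near the floor of 3 counts give no detectable difference at this depth.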
